A study of Mus musculus with 6 samples.

Results

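The 10 genes described here are Adipoq, Cfd, Retn, Plin1, Cidec, Plin4, Fabp4, Lipe, Pck1 and Car3, a set that marks fat cells and includes adipsin, the product of Cfd. They were taken by symbol from the gene identifiers of the deposited count table, and all 10 of 10 were found among its 54532 rows. RNA had been sequenced from whole tissue labelled heart of C57BL/6 mice aged 8 to 10 weeks, collected at day 14 after myocardial infarction. The wild-type group (WT) and the group labelled ACKR4_KO, which lacks the atypical chemokine receptor ACKR4, had 3 libraries each. All 6 hearts were infarcted. The part of the heart taken, the sex of the mice and the way the knockout was made are not stated in the labels or notes. Nothing in the labels says that the 3 libraries of a group came from separate mice, so the p-values measure the spread between these libraries, which may be technical.

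White fat cells store triglyceride in a single large lipid droplet. Perilipin 1 and CIDEC coat and enlarge that droplet, hormone-sensitive lipase (Lipe) breaks down its contents, and the cells secrete adiponectin (Adipoq), adipsin (Cfd) and resistin (Retn) into the blood. On the mouse heart such cells lie mainly in the epicardial and pericardial fat, next to the mesothelium that covers the heart and lines the pericardium. Several of the 10 genes are also used by other heart cells: FABP4, a fatty acid carrier, is made by capillary endothelium, and Lipe and Plin4 are active in muscle.

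Among the 10 genes, 7 rose and fell together from library to library by 10.2- to 54.6-fold within a genotype: Adipoq, Cfd, Retn, Plin1, Cidec, Car3 and Pck1. The other 3, Plin4, Fabp4 and Lipe, differed by 1.09- to 2.01-fold within a genotype. Replicate 1 had the highest value of the 7 genes in both genotypes, and none of the 10 genes differed between WT and ACKR4_KO in edgeR's quasi-likelihood test with adjustment over all genes. In whole tissue, fewer cells of a type and less RNA per cell cannot be told apart.

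Of the 10 genes, 8 had an entry in the RefSeq promoter table (GRCm38.p6), Fabp4 and Car3 had none, and those of the 3 secreted proteins are shown because their RNA moved together while their sequences share none of the motifs searched. Each is the 250 bases before the annotated start, 5′ to 3′, with matches to CCAAT or its reverse complement in capitals.
Adipoq (chr16:23146286-23146535, plus strand): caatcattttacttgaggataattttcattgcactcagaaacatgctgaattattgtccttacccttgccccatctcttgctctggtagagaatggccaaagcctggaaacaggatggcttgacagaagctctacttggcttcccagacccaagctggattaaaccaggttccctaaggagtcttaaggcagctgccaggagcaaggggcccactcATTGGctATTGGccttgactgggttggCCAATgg
Cfd (chr10:79890603-79890852, plus strand): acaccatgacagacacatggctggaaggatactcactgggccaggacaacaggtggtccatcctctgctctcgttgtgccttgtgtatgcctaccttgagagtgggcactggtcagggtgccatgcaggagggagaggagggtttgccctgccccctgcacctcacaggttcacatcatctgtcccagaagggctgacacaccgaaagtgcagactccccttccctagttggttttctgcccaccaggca
Retn (chr8:3655520-3655769, plus strand): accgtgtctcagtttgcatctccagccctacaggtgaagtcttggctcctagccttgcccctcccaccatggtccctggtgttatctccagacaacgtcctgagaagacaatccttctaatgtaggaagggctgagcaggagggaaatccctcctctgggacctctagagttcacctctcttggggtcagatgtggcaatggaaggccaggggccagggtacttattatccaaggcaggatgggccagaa

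The Adipoq window held 3 CCAAT matches, 34, 27 and 7 bases before the start, the first pair on the opposite strand. Cfd and Retn held no match to any of the 6 motifs searched on both strands. Those motifs were CCAAT, found in 33.8% of 32851 promoter windows of the same length, TATAAA (12.4%), the nuclear receptor core AGGTCA (14.0%), its direct repeat AGGTCANAGGTCA, which contains that core (0.0335%), the C/EBP-type TTGCNNAA (9.56%) and the cyclic AMP response core ACGTCA (6.47%). Elsewhere among the members, Plin4 had 1 CCAAT match, 18 bases before its start. Plin1 had 2 C/EBP-type matches, at 187 and 58 bases, and Cidec had 1, at 198 bases before 1 of its 2 listed starts. Pck1 held the cyclic AMP response core 91 bases before its start. The starts used here are those of RefSeq, whereas the gene spans given below are those of GENCODE. The matches of Plin4 and Cidec, and that of Plin1 at 58 bases, lie inside those spans. None of the 8 held TATAAA, the nuclear receptor core or its direct repeat, and Lipe held none of the 6 motifs. No motif searched was therefore common to the genes that moved together. A match is a description of letters in a window and not a measured binding site.

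The libraries held 9422462 to 13910358 reads assigned to genes, so 3 reads corresponded to 0.207 to 0.309 counts per 1000000 reads (CPM). Ackr4 itself averaged 13.3 ± 2.00 CPM in the WT libraries, against 0.491 ± 0.494 in ACKR4_KO (SD, n = 3 each), with edgeR adjusted p = 0.0990. Over 14406 genes that passed the filter on low counts, edgeR called 0 (0%), with 1073 at an unadjusted p under 0.05, while DESeq2 called 39 on the same genes (0.271%). The 39 included Ackr4. The groups did not overlap, in either direction, for 14.2% of the 14406 genes. The list of 12 cardiomyocyte genes summed to 41863 to 51705 CPM in WT and 52634 to 72213 CPM in ACKR4_KO. Marker genes of lung epithelium and fast skeletal muscle were present unevenly. The 9 tested lung genes were all lower in ACKR4_KO, and DESeq2 called 8 of them. Of 7 tested fast muscle genes DESeq2 called 1, and edgeR called 0 in either list. The lung list summed to 46.7 to 284 CPM in WT and 1.37 to 2.97 CPM in ACKR4_KO, and the fast muscle list to 15.8 to 183 CPM in WT and 12.8 to 35.3 CPM in ACKR4_KO. Neither list followed the library order of the adipocyte genes. Fast muscle genes rose from replicate 1 to 3 in both genotypes, the reverse of the adipocyte genes within each genotype. Their sums were 15.8, 142 and 183 CPM in WT, against 12.8, 22.8 and 35.3 CPM in ACKR4_KO. In WT, lung genes were highest in replicate 1 (284 CPM), as the adipocyte genes were, but lowest in replicate 2. The part of lung or fast muscle tissue in the adipocyte result was not tested.

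Of the 7 variable genes, Cfd and Car3 had the most reads. Cfd (ENSMUSG00000061780, chr10:79890853-79892655 in GRCm38, plus strand) encodes adipsin, the serine protease complement factor D, which cleaves factor B in the alternative complement pathway. It was at 232, 32.4 and 8.06 CPM in WT replicates 1, 2 and 3 and at 68.2, 13.9 and 2.79 CPM in the ACKR4_KO replicates. Replicate 1 was the highest and replicate 3 the lowest in each genotype, and the groups overlapped throughout. Within WT the highest library was 28.8-fold above the lowest (95% exact interval 23.9 to 34.9, counting error only), on 2983 and 117 reads. In ACKR4_KO the same ratio was 24.4 (17.2 to 35.9). Against this spread, the fitted ACKR4_KO minus WT difference was -1.67 on the log2 scale (SE 1.53, edgeR adjusted p = 0.805).

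Adipoq (ENSMUSG00000022878, chr16:23146536-23158028, plus strand) encodes adiponectin, a hormone made almost wholly by fat cells. Its levels were 25.7, 5.66 and 1.38 CPM in WT, against 12.4, 1.54 and 0.698 in ACKR4_KO, in replicate order. The libraries stood in the same order as for Cfd, from WT replicate 1 through ACKR4_KO replicate 1, WT replicate 2, ACKR4_KO replicate 2 and WT replicate 3 to ACKR4_KO replicate 3. The genotype difference was -1.13 (SE 1.33, edgeR adjusted p = 0.842). Retn (ENSMUSG00000012705, chr8:3655770-3660110, plus strand), the gene of resistin, was at 10.3, 2.78 and 0.275 CPM in WT, against 4.85, 0.512 and 0.175 in ACKR4_KO. That is again the same order, although the lowest libraries of WT and ACKR4_KO held only 4 and 2 Retn reads. On the log2 scale Retn differed by -1.23 (SE 1.38, edgeR adjusted p = 0.837).

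**Figure D1:**
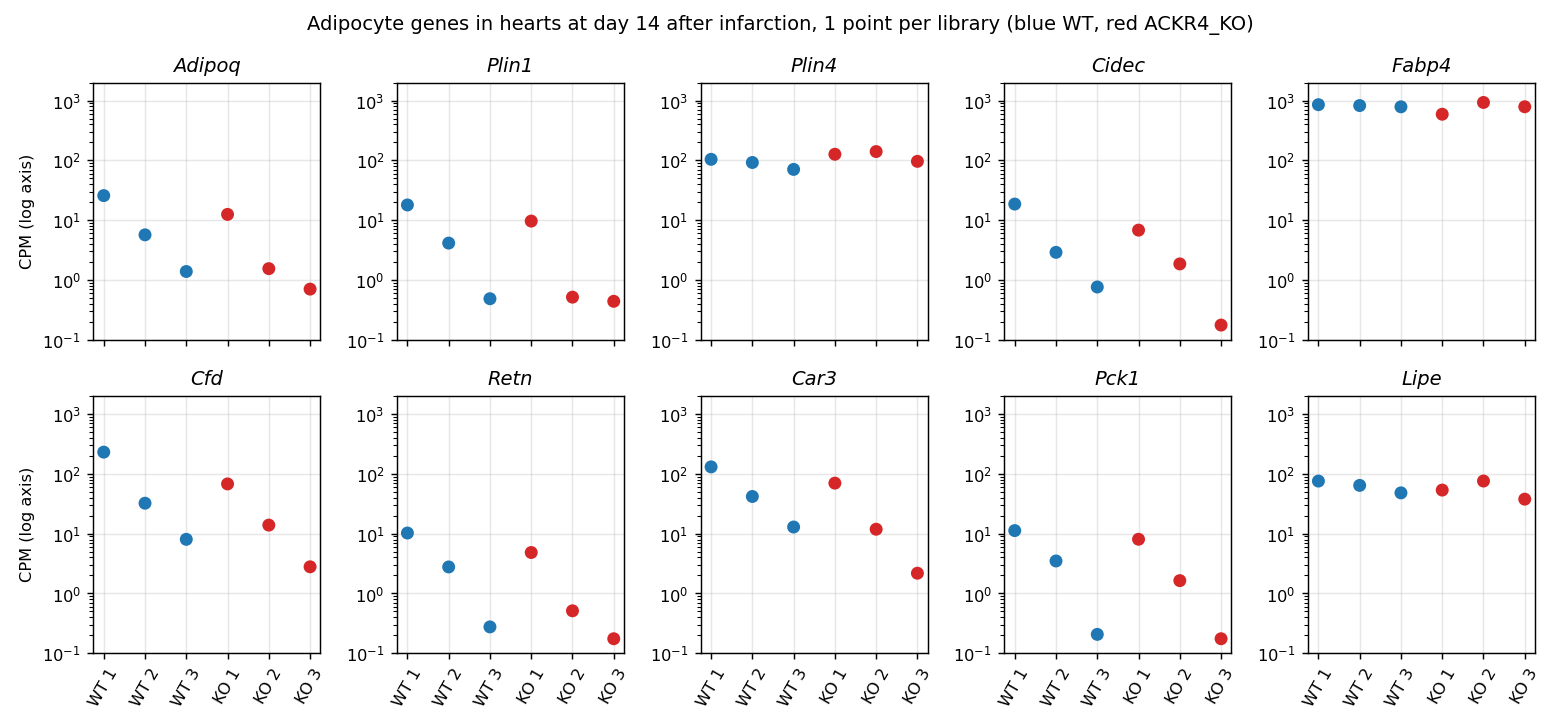
Level of each of the 10 genes in each library, as CPM on a log axis (blue WT, red ACKR4_KO, 1 point per library). Cfd spans 232 to 8.06 CPM over the WT libraries and 68.2 to 2.79 CPM over the ACKR4_KO libraries, and 6 other genes show a like span, while the points of Plin4, Fabp4 and Lipe lie nearly level.

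The lipid droplet genes divided. Plin1 (ENSMUSG00000030546, chr7:79720218-79732903, minus strand), the droplet coat protein that gates lipolysis in fat cells, was at 17.9, 4.12 and 0.482 CPM in WT, against 9.61, 0.512 and 0.436 in ACKR4_KO. Cidec (ENSMUSG00000030278, chr6:113424634-113435760, minus strand), which promotes fusion of droplets, was at 18.5, 2.88 and 0.758 CPM in WT, against 6.78, 1.84 and 0.175 in ACKR4_KO. Both kept the library order of Adipoq. Plin1 differed between genotypes by -1.06 (SE 1.48, edgeR adjusted p = 0.878) and Cidec by -1.31 (SE 1.36, edgeR adjusted p = 0.826).

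Plin4 (ENSMUSG00000002831, chr17:56100591-56109803, minus strand), a perilipin of small droplets, did not keep the library order of Adipoq. It was at 104, 92.0 and 70.5 CPM in WT, against 126, 140 and 96.1 in ACKR4_KO. ACKR4_KO replicates 1 and 2 lay above every WT library, and ACKR4_KO replicate 3 lay between WT replicates 1 and 2. Plin4 was the single member with an unadjusted p under 0.05 (log2 difference 0.45, SE 0.19, 95% interval 0.02 to 0.87), and it did not pass edgeR's adjustment over all genes (adjusted p = 0.664). Its annotation overlaps Hdgfl2 on the opposite strand by 17 bases, and the strand setting of the counting is not stated in the labels or notes.

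The metabolic enzymes also divided. Car3 (ENSMUSG00000027559, chr3:14863512-14872523, plus strand), the cytosolic carbonic anhydrase 3 abundant in fat and slow muscle, was at 131, 42.0 and 12.9 CPM in WT, against 70.3, 11.9 and 2.18 in ACKR4_KO. Its order differed from that of Adipoq only in that WT replicate 3 stood just above ACKR4_KO replicate 2. The log2 difference was -1.13 (SE 1.32, edgeR adjusted p = 0.842). Pck1 (ENSMUSG00000027513, chr2:173153048-173159273, plus strand) encodes the cytosolic phosphoenolpyruvate carboxykinase, which supplies glycerol 3-phosphate for triglyceride synthesis in fat cells.

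Pck1 was at 11.3, 3.50 and 0.207 CPM in WT, against 8.08, 1.64 and 0.175 in ACKR4_KO. Its lowest libraries held 3 reads in WT and 2 in ACKR4_KO. The ratio of highest to lowest, 54.6 in WT and 46.3 in ACKR4_KO, therefore has wide 95% exact counting intervals, of 18.3 to 268 and 12.5 to 387. Between genotypes Pck1 differed by -0.57 (SE 1.40, edgeR adjusted p = 0.930).

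Lipe (ENSMUSG00000003123, chr7:25379527-25398710, minus strand), the hormone-sensitive lipase that hydrolyses diglyceride, stayed within a narrow band. It was at 76.1, 64.4 and 48.3 CPM in WT, against 53.8, 76.2 and 37.9 in ACKR4_KO, with the groups overlapping and ACKR4_KO replicate 2 the highest. The difference was -0.17 (SE 0.26, 95% interval -0.78 to 0.44, edgeR adjusted p = 0.889). A long antisense gene, 4732471J01Rik, covers all 19184 bases of the Lipe locus, so without strand information reads of the pair cannot be told apart.

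Fabp4 (ENSMUSG00000062515, chr3:10204088-10208576, minus strand) was the member with the highest mean level and in WT the least variable. It was at 854, 825 and 787 CPM in WT, against 591, 930 and 788 in ACKR4_KO. ACKR4_KO replicate 1, the knockout library with the most Adipoq, had the least Fabp4. The genotypes differed by -0.09 (SE 0.19, 95% interval -0.53 to 0.34, edgeR adjusted p = 0.915).

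**Figure D2:**
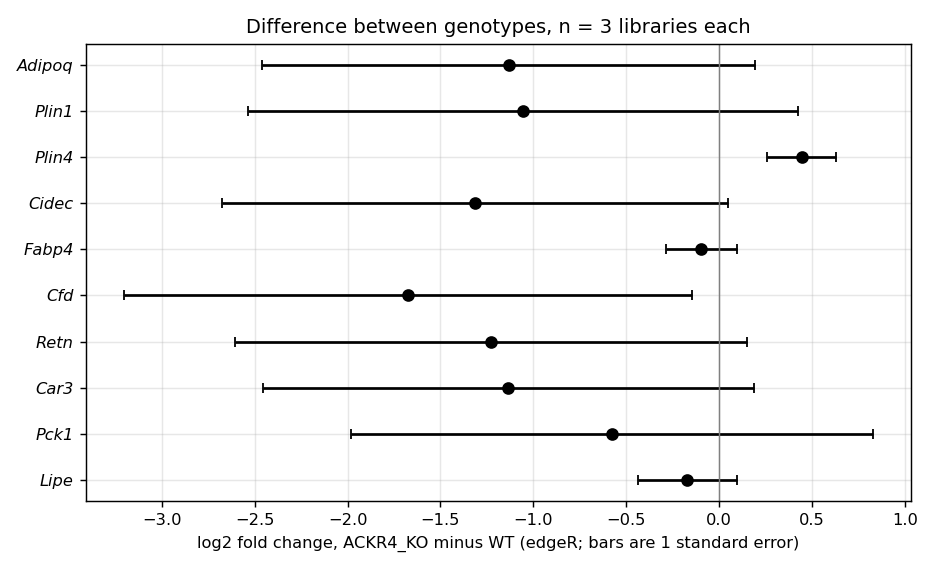
Fitted ACKR4_KO minus WT difference of each gene on the log2 scale (edgeR, n = 3 libraries per genotype), with bars of 1 standard error. The bars of the 7 variable genes span 1.32 to 1.53 log2 units on each side of the point, against 0.19 to 0.26 for Plin4, Fabp4 and Lipe.

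All 10 genes passed the filter on low counts. Of these, 0 were called by edgeR and 0 by DESeq2, whose adjusted p ranged from 0.671 to 0.990, and 0 had groups that did not overlap. The median of their fitted differences was -1.09, with 9 lower and 1 higher in ACKR4_KO, beside a median of 0.01 over all genes tested. That median rested on WT replicate 1: without this library it was 0.52, and Adipoq (0.53), Plin1 (0.68), Cidec (0.74), Cfd (0.51), Retn (0.36), Car3 (0.06) and Pck1 (0.91) all turned to the higher side. Leaving out ACKR4_KO replicate 1, the median moved the other way, to -3.05. Since 1 library of either genotype decides the sign or size, the 7 genes gave no stable direction between genotypes. Intervals of the 7 were wide, for example -4.40 to 2.14 for Adipoq and -5.50 to 2.15 for Cfd, so that large differences either way could not be detected with 3 libraries a group. For Fabp4 and Lipe, too, the sign turned when 1 library was left out, to 0.06 for Fabp4 without ACKR4_KO replicate 1 and to 0.05 for Lipe without ACKR4_KO replicate 3.

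Per kilobase of exon (RPKM, which allows levels of different genes to be compared), the order in WT was led by Fabp4 at 183 ± 7.53 and Cfd at 98.5 ± 133 (SD, n = 3). Car3 followed at 21.7 ± 21.6, Plin4 at 15.4 ± 2.93, Lipe at 10.7 ± 2.37 and Adipoq at 7.90 ± 9.39. Cidec (3.98 ± 5.23), Retn (2.81 ± 3.29), Plin1 (1.61 ± 1.98) and Pck1 (1.46 ± 1.66) were the lowest. For each of the 7 variable genes the SD was about as large as the mean or larger, so that mean ± SD overlapped between all neighbours in this order. Within libraries the order was firmer for some of them: Cfd lay above Car3, Plin4 above Lipe, Adipoq above Cidec and Retn above Plin1 in all 6 libraries. The order within the other neighbouring pairs changed between libraries. In WT replicate 1 alone Cfd reached 252 RPKM against 190 RPKM for Fabp4. By contrast, in ACKR4_KO replicate 3 Cfd was at 3.03 RPKM and Fabp4 at 176 RPKM.

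The size of the spread within a genotype was set beside that of all genes. The log2 CPM range over the 3 WT libraries was 4.06 for Adipoq, 4.82 for Cfd, 4.55 for Retn, 4.79 for Plin1, 4.33 for Cidec, 3.33 for Car3 and 4.93 for Pck1, beside a median of 0.28 over all genes tested. Ranges at least as wide were found in 0.0416% (Pck1) to 0.174% (Car3) of genes. In ACKR4_KO the 7 ranges were 3.86 to 4.90, beside a median of 0.50, and 0.132% (Car3) to 0.437% (Adipoq) of genes had ranges at least as wide. The 3 level genes were ordinary in this respect. In WT the range was 0.56 for Plin4, 0.12 for Fabp4 and 0.65 for Lipe, reached by 18.3%, 86.0% and 13.7% of genes.

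**Figure D3:**
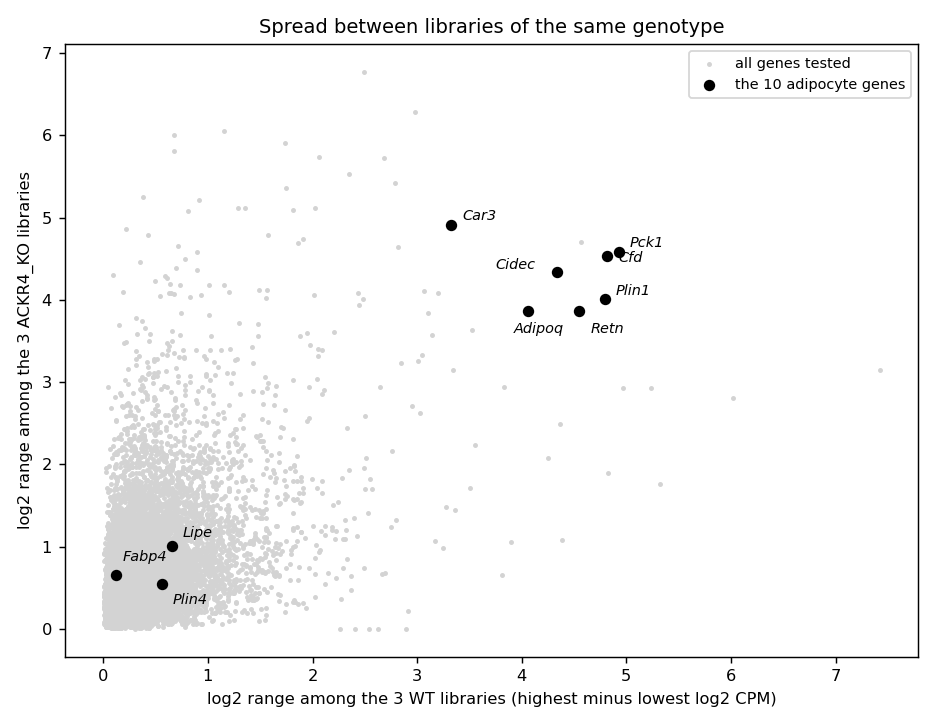
Range of log2 CPM over the 3 WT libraries (x axis) against that over the 3 ACKR4_KO libraries (y axis), 1 grey point per gene tested and the 10 adipocyte genes in black. The 7 variable genes lie at 3.33 to 4.93 in WT and 3.86 to 4.90 in ACKR4_KO, away from the bulk of genes, and Plin4, Fabp4 and Lipe lie within it.

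How closely the members moved together was measured by the correlation of log2 CPM across the 6 libraries, for all 45 pairs. The 21 pairs among the 7 variable genes had Pearson r of 0.915 to 0.996 (median 0.961) and Spearman rho of 0.943 to 1. For Adipoq and Retn, r was 0.993 (exact permutation p = 0.00139, the smallest that 720 orderings allow, Benjamini-Hochberg adjusted over 45 pairs 0.00625) and rho was 1 (exact permutation p = 0.00278, adjusted 0.00833). Adipoq had r of 0.987 with Plin1, 0.983 with Cfd, 0.966 with Cidec, 0.961 with Car3 and 0.944 with Pck1. Across the 21 pairs the adjusted exact permutation p was 0.00625 to 0.0417 for r and 0.00833 to 0.0357 for rho. The relation held within genotype, with r of 0.909 to 0.997 after each group was centred on its own mean. Without the 2 libraries farthest from the median of the first gene, r was 0.695 to 0.985 over 4 libraries, and these values were not tested. The libraries left out depended on the pair. They were WT replicate 1 and either ACKR4_KO replicate 1 or ACKR4_KO replicate 3. Because these genes were grouped as adipocyte markers with earlier results of these libraries known, the p-values describe the 6 libraries and are not independent evidence. The division into 7 variable and 3 level genes was made from these same values. The contrast between the 21 pairs and the other pairs is therefore no test of that division.

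The 24 pairs with Plin4, Fabp4 or Lipe had r of -0.360 to 0.744. Of these, 0 passed the adjusted exact permutation test (smallest adjusted p = 0.202). Fabp4 against Plin1 was the lowest at -0.360 and Lipe against Cidec the highest at 0.744. After centring on genotype, r of the 24 pairs was -0.492 to 0.958, and without the 2 farthest libraries it was -0.877 to 0.996. With the 7 variable genes, centred r was 0.652 to 0.867 for Plin4 and 0.421 to 0.720 for Lipe. For Fabp4 it was -0.492 to -0.258. In WT, Plin4, Lipe and Fabp4 also fell from replicate 1 to 3, but by 1.09-fold (Fabp4) to 1.58-fold (Lipe). No batch, date or litter is named in the labels, so the correlation could not be repeated within one.

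**Figure D4:**
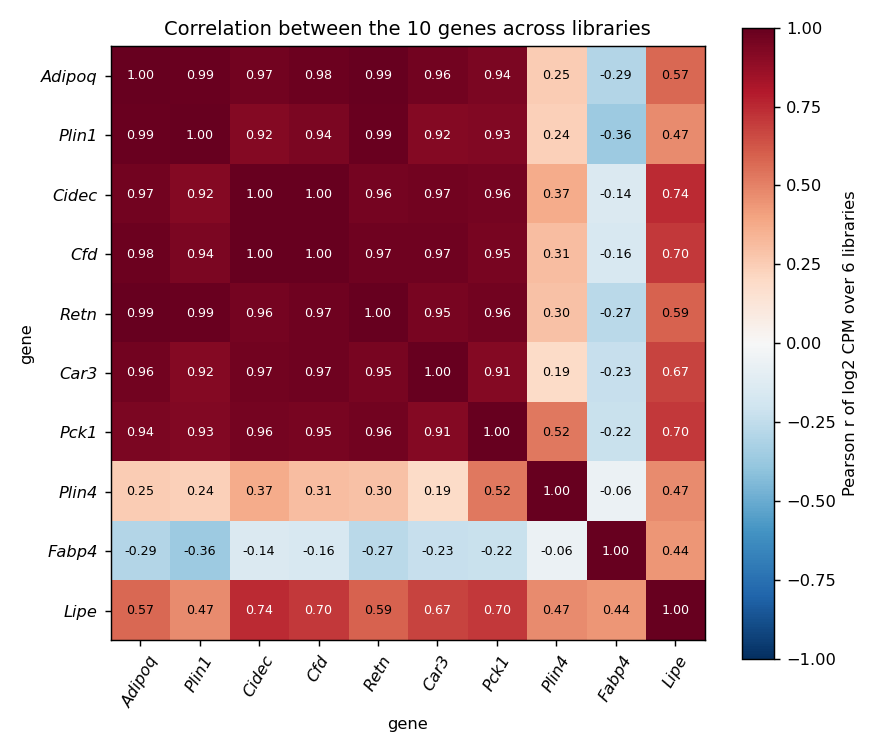
Pearson r of log2 CPM over the 6 libraries for each pair of the 10 genes, coloured from -1 (blue) to 1 (red). The 7 genes from Adipoq to Pck1 form a block of r from 0.915 to 0.996, and the rows of Plin4, Fabp4 and Lipe lie between -0.360 and 0.744.

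Set against WT replicate 1 as 100%, the median level of the 7 genes was 23.0% in WT replicate 2 and 3.47% in WT replicate 3. It was 48.4%, 6.00% and 1.66% in ACKR4_KO replicates 1, 2 and 3. The same medians for Plin4, Fabp4 and Lipe were 88.6%, 67.8%, 70.7%, 109% and 92.3%. The 7 genes stayed closer to a fixed proportion of each other than of Plin4, Fabp4 and Lipe, which their ratios to Adipoq show. The per-length ratio of Cfd to Adipoq lay between 5.99 and 13.6 over the 6 libraries, a 2.27-fold span, while Adipoq itself spanned 25.7 to 0.698 CPM. The corresponding spans were 2.32-fold for Plin1, 2.45-fold for Retn, 3.01-fold for Car3, 4.80-fold for Cidec and 7.11-fold for Pck1, with Cidec, Retn and Pck1 on only 2 reads each in ACKR4_KO replicate 3. For Fabp4, Plin4 and Lipe the ratio to Adipoq spanned 33.9-, 34.0- and 18.3-fold.

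A further description was made after these values had been seen. Replicate 1 was the highest library in both genotypes for 7 of the 10 members, and for 9.63% of all genes tested. It was at least 2-fold above both other libraries of its genotype, in both genotypes, for the same 7 members and for 23 genes in all, or 0.16% of those tested. The other 16 genes, named after their values were seen, include adipocyte-associated Scd1, Cyp2e1, Rbp4, Nnat, Serpina3c and Cdo1. The rest were Upk3b, Msln, Lrrn4, Rspo1, Iglc1, Fos, Ntrk2, Glb1l2, Fam84a and C6. Fos was at 56.5, 15.9 and 25.8 CPM in WT, against 12.8, 5.43 and 5.41 in ACKR4_KO. Iglc1 was at 14.2, 3.81 and 2.96 CPM in WT, against 9.37, 0.615 and 0.698 in ACKR4_KO. Cyp2e1, a cytochrome P450, was at 42.1, 6.07 and 0.482 CPM in WT, against 7.75, 3.48 and 0.960 in ACKR4_KO. Scd1, the stearoyl-CoA desaturase, was at 105, 50.2 and 52.0 CPM in WT, against 81.0, 30.5 and 26.7 in ACKR4_KO.

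Markers of the mesothelium also showed this pattern. Of the mesothelial list, 8 of 10 genes were tested, 6 of the 8 were highest in replicate 1 of both genotypes, and 4 were at least 2-fold above the other libraries there: Upk3b, Msln, Lrrn4 and Rspo1. The summed level of the list was 58.6, 31.5 and 20.3 CPM in WT, against 76.7, 29.0 and 17.5 in ACKR4_KO. Uroplakin 3b (Upk3b), a mesothelial surface protein, was at 18.9, 5.86 and 2.00 CPM in WT, against 19.5, 3.07 and 1.48 in ACKR4_KO. Replicate 1 was thus the highest in both genotypes, as for Adipoq, but here ACKR4_KO replicate 1 stood above WT replicate 1, the reverse of the 7 adipocyte genes. Wt1, a transcription factor shared by mesothelium and epicardium, did not follow (7.86, 12.2 and 8.54 CPM in WT, 14.2, 18.3 and 8.55 CPM in ACKR4_KO). Of the 4 tested lymphocyte genes, all at low level, 3 were highest in replicate 1 of both genotypes (Cd79a, Cd79b and Ccr7) and 0 by 2-fold. Iglc1, an immunoglobulin light chain gene outside this list, did reach 2-fold in both genotypes. Cd79b, part of the B cell receptor, was at 3.11, 2.98 and 2.62 CPM in WT, against 1.94, 1.33 and 1.48 in ACKR4_KO. The part of mesothelium, lymphoid tissue or other tissue around the heart in the adipocyte result was not tested.

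**Figure D5:**
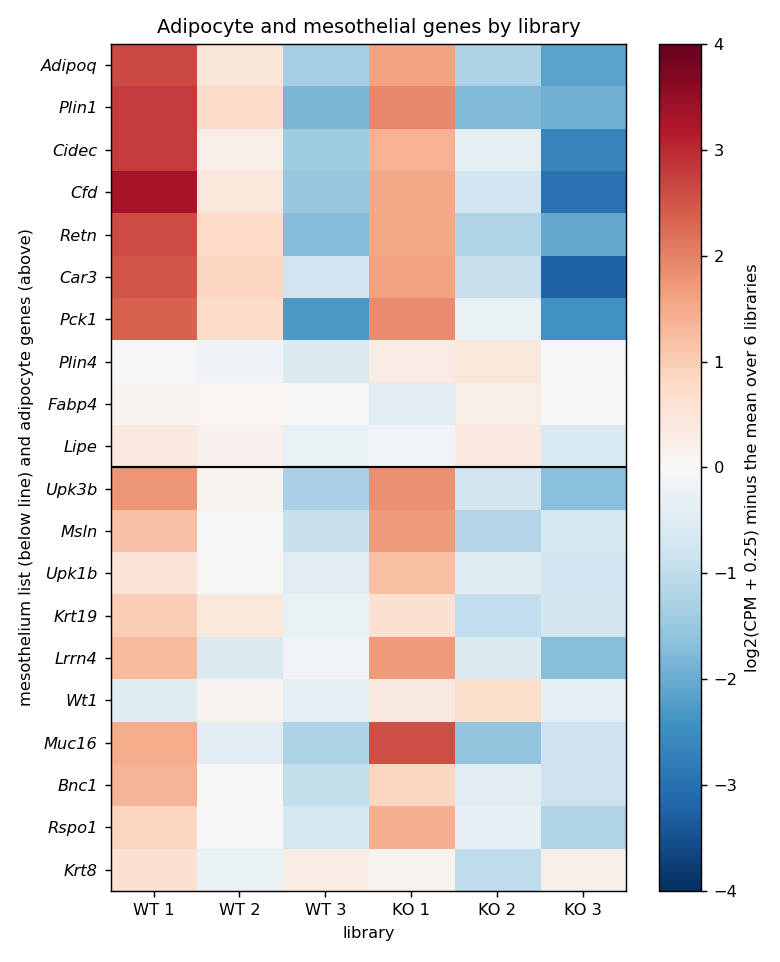
Each gene's log2(CPM + 0.25) minus its mean over the 6 libraries, with the 10 adipocyte genes above the line and the 10 genes of the mesothelial list below it. Replicate 1 of both genotypes is red and ACKR4_KO replicate 3 blue for the 7 variable adipocyte genes, most mesothelial genes are highest in replicate 1, and Plin4, Fabp4, Lipe and Wt1 are pale.

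In lists of the main heart cells, replicate 1 was highest in both genotypes for 0 of 12 capillary endothelial genes, 0 of 12 cardiomyocyte genes and 0 of 10 macrophage genes. The share over all genes was 9.63%, so each of these counts is near it and says little about its list. The capillary endothelial list summed to 2542, 2823 and 2961 CPM in WT, against 2364, 3250 and 1994 in ACKR4_KO. In WT it was lowest where Adipoq was highest. Fabp4, which such cells also make, shared with this list the highest ACKR4_KO value in replicate 2.

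The regulators of fat cell identity were tested as a list of 10 transcription factors. edgeR called 0 of 10, with 4 higher and 6 lower in ACKR4_KO and a median difference of -0.10. Of the 10, 0 were highest in replicate 1 of both genotypes, beside 9.63% of all genes. That count is too near the share over all genes to say whether the list tracked the adipocyte genes. Rxra, the retinoid X receptor that pairs with PPARγ, was at 99.6, 89.4 and 98.2 CPM in WT, against 94.2, 95.6 and 91.7 in ACKR4_KO. Cebpd, an early factor of adipogenesis, was highest in WT replicate 2 at 142 CPM and lowest in ACKR4_KO replicate 3 at 43.6 CPM. Within ACKR4_KO it fell from replicate 1 to 3 as Adipoq did (115, 83.3 and 43.6 CPM).

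Among other genes of lipid droplets and lipolysis, edgeR called 0 of 18, with 11 higher, 7 lower and a median of 0.06. Pnpla2, the triglyceride lipase that acts before hormone-sensitive lipase, was at 269, 281 and 232 CPM in WT, against 301, 384 and 212 in ACKR4_KO. In the list of lipid uptake and lipogenesis edgeR called 0 of 18, with 8 higher and 10 lower and a median of -0.04. Lpl, the lipoprotein lipase that muscle as well as fat secretes, was at 3391, 2999 and 2913 CPM in WT, against 3467, 4375 and 2543 in ACKR4_KO. Neither gene followed the order of Adipoq. In the lipogenesis list, 5 of its 18 genes were highest in replicate 1 of both genotypes, beside 9.63% of all genes. These were Lpin1, Scd1, Fasn, Acaca and Elovl6, named after their values were seen. Their r with the mean log2 CPM of the members ran from 0.309 (Lpin1) to 0.877 (Scd1). For Lpl it was 0.406 and for Pnpla2 0.384, so Lpin1 followed the members less closely than these did. Fasn, the fatty acid synthase, was at 79.4, 38.9 and 45.6 CPM in WT, against 85.0, 33.7 and 35.0 in ACKR4_KO.

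The list of other secreted and surface genes of adipocytes had 0 of 13 called by edgeR, 3 higher and 10 lower, with a median of -0.25. Of the 13, 6 were highest in replicate 1 of both genotypes, and 4 by at least 2-fold (Cyp2e1, Rbp4, Nnat and Serpina3c). Below the filter on low counts were Lep, the gene of leptin, with 12, 5 and 4 reads in WT and 8, 0 and 0 in ACKR4_KO, and Adrb3, the beta-3 adrenergic receptor of fat, with 60, 4 and 3 reads in WT and 16, 2 and 3 in ACKR4_KO. Both had most reads in replicate 1 of each genotype. They were named after their values had been seen.

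Part of the brown adipocyte list was nearly absent. Ucp1, the uncoupling protein of brown fat, had 1 read in WT replicate 1 and 0 in the other libraries, and Elovl3 and Lhx8 had 0 reads everywhere. These 3 were named for their low counts, after the values had been seen. Others of the list, also named after their values were seen, were present: Kcnk3 averaged 207 CPM, Cidea 24.9 CPM and Dio2 22.8 CPM over all libraries. Dio2 was at 34.1, 29.1 and 29.3 CPM in WT, against 19.8, 8.30 and 16.3 in ACKR4_KO. Its groups did not overlap, but it did not pass edgeR's adjustment (adjusted p = 0.606). In the brown adipocyte list edgeR called 0 of 8 tested genes and DESeq2 called 1 (Ppargc1a, adjusted p = 0.0418), with 6 higher, 2 lower and a median of 0.29, and its most abundant genes are also heart genes. Cox8b, a cytochrome oxidase subunit of heart and brown fat, was at 257, 268 and 262 CPM in WT, against 285, 462 and 863 in ACKR4_KO.

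In the families of single members, no other tested gene was at least 2-fold higher in replicate 1 of both genotypes than in the other libraries. Adipsin acts in the alternative complement pathway, of which 11 other genes were tested: 0 were called by edgeR, 1 was higher and 10 lower, with a median of -0.27. C3, the substrate of the convertase that adipsin helps to form, was at 531, 545 and 508 CPM in WT, against 763, 304 and 154 in ACKR4_KO, level in WT where Cfd differed 28.8-fold. In the carbonic anhydrase family, 0 of 8 tested genes other than Car3 were called by edgeR, with 2 higher, 6 lower and a median of -0.19. Car14, a membrane-bound form, was at 61.3, 62.9 and 56.0 CPM in WT, against 73.5, 104 and 80.2 in ACKR4_KO, the groups not overlapping but the adjusted p at 0.606 by edgeR. The adiponectin receptors and related C1q/TNF genes had 0 of 11 called by edgeR, 5 higher and 6 lower, with a median of -0.03, and Adipor1, the receptor gene with the highest level, differed by less than 0.01.

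The resistin family had 2 tested genes beside Retn, Retnla (0.52) and Retnlg (1.32), both higher in ACKR4_KO without passing edgeR's test. Of fatty acid binding proteins, Fabp3 (0.32) and Fabp5 (-0.16) were tested and not called. The glyceroneogenesis list without Pck1 had 0 of 7 called by edgeR, 6 higher and 1 lower, with a median of 0.15. Pck2, the mitochondrial form of the enzyme, was at 30.0, 29.0 and 31.3 CPM in WT, against 30.1, 27.3 and 38.4 in ACKR4_KO, where Pck1 varied 54.6-fold and 46.3-fold. Of preadipocyte and adventitial progenitor genes edgeR called 0 of 11, with 3 higher and 8 lower and a median of -0.23, and 4 of the 11 lay below every WT library in all ACKR4_KO libraries (14.2% of all genes did not overlap in either direction). DESeq2 called 1 of them, Pi16, a surface marker of adventitial fibroblasts (adjusted p = 0.0303, edgeR adjusted p = 0.606), at 363, 387 and 345 CPM in WT, against 277, 221 and 211 in ACKR4_KO. In none of these lists did any tested gene lie at least 2-fold higher in replicate 1 of both genotypes than in the other libraries. Replicate 1 was highest, by any margin, for 1 of 11 complement genes (Cd55), 1 of 8 carbonic anhydrases (Car5b) and 1 of 11 adiponectin-related genes (C1qtnf7). The same held for 1 of 7 glyceroneogenesis genes (Pcx) and 3 of 11 progenitor genes (Cd55, Dpp4 and Wnt10b), beside 9.63% of all genes. These genes were named after their values were seen.

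The genes outside the set whose log2 CPM was most like the mean of the members over the 6 libraries were sought among 12839 genes with a mean of at least 2 CPM. Of these, 45 had r above 0.9 and 34 had r below -0.9, so values this far from 0 occurred in both directions. The closest 10 were D10Wsu102e (r = 0.983), Mapk9 (0.9747), Upk3b (0.971), Zfp235 (0.969), Mcrs1 (0.966), Zfp758 (0.959), Vps16 (0.952), Hp (0.950), Ccdc166 (0.950) and Tpm3-rs7 (0.947). Most of the 10 changed little: D10Wsu102e spanned 0.21 and Mapk9 0.23 on the log2 scale, so that a high r there describes a shared order and not a shared size. Only Upk3b (3.58) and Hp (3.59) of the 10 spanned more than 1.25. Haptoglobin (Hp), a hemoglobin-binding plasma protein made by liver and fat, was at 59.7, 40.2 and 15.01 CPM in WT, against 54.4, 12.8 and 4.80 in ACKR4_KO, with replicate 1 the highest and replicate 3 the lowest in each genotype.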

How the data were processed

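Mouse heart RNA from 3 WT and 3 ACKR4_KO libraries was analysed from a table of raw read counts per gene that the authors deposited. Per the submitters' processing notes, CASAVA 1.8.2, HISAT2, HTSeq 0.6.0 and mm10 were used; the annotation release and strand setting are not stated in the labels or notes. Of 54532 identifiers, 54409 matched a symbol. The members and gene lists were chosen with earlier results of these data known.

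Counts were filtered (edgeR filterByExpr, at least 10 reads, 15 in total), scaled by TMM and tested two-sided with edgeR 4.0.16 (robust quasi-likelihood, R 4.3.3), with Benjamini-Hochberg adjustment over 14406 genes and a threshold of 0.05. Standard errors are the absolute log2 difference over the square root of F. DESeq2 1.42.0 and limma 3.58.1 served as alternatives. CPM used the TMM factors, log2 CPM a prior count of 2, and RPKM the union of GENCODE M21 exons. Intervals on reads are exact and cover counting error only. The fit was tested on simulated data with 200 changed genes.

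Named were all 10 members and Ackr4, genes of each list taken from its 4 of highest mean CPM, the 10 genes most like the members, and genes chosen after their values were seen, named as such or because DESeq2 called them. Of the lists of other cell types, red blood cell (5 tested), nerve and Schwann cell (5), lymphocyte (4) and liver (1) genes had 0 called by edgeR; other results stand in the text. Libraries of a genotype differed by more than sampling noise (chi-square per degree of freedom 8.09 to 63.4). Same-numbered libraries correlated by 0.067, 0.053 and 0.125, and differently numbered ones by -0.121 to 0.063. Each WT library correlated best with the ACKR4_KO library of its number. These values are small and no shared source is stated, so the numbers were not taken to pair the libraries. The column headers of replicate 1 also carry different numbers, WT_MI3 and KO_MI4.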

Additional observations from a re-analysis of the deposited data

How the results depend on the processing

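In edgeR the count of genes called, 0, became 24 with no filter on low counts; DESeq2 called 39 on the same genes and 41 on all genes with a read, and leaving out 1 library in turn gave 0 to 1. With the replicate number as a block, 6 genes and 1 member were called: Cfd at -1.52 (edgeR adjusted p = 0.0476). The numbers share no stated source, so this block is not a paired analysis, and the call was made under no other setting. The median difference of the members was -3.05 to 0.52 when 1 library was left out in turn, and -1.26 to -1.09 under the other planned settings. Single genes ranged, with 1 library left out, from -3.30 to 0.53 (Adipoq), -3.96 to 0.68 (Plin1), -2.92 to 0.74 (Cidec), -3.47 to 0.51 (Cfd), -3.69 to 0.36 (Retn), -3.17 to 0.056 (Car3), -2.50 to 0.91 (Pck1), -0.25 to 0.064 (Fabp4) and -0.45 to 0.051 (Lipe). All 7 variable genes turned without WT replicate 1. Plin4 kept its direction, 0.30 to 0.59. With both number 1 libraries left out, a setting chosen after seeing the data, Fabp4 was at 0.092 and Lipe at 0.018, and the median was -0.92 over the 8 members that passed the filter, without Plin1 and Retn. The 21 correlated pairs were called under all 6 other scalings or prior counts. Correlations with 1 library left out were not run; those without the 2 farthest libraries stand in the report. The cause of these shifts was not tested. Depth limits Retn, Pck1 and Cidec, with 2 reads each in ACKR4_KO replicate 3.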
